A study of Mus musculus with 106 samples.

Results

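The promoters described here carried trimethylation of histone H3 at lysine 4 (H3K4me3) in mouse hematopoietic stem cells (HSCs) but little acetylation of histone H3 at lysine 27 (H3K27ac). For each list, a protein-coding gene had a mark when a peak lay within 1000 bp on either side of any of its start sites. A gene was a member with H3K4me3 in 9 or more of the 12 HSC peak lists and H3K27ac in 3 or fewer. Of 21938 protein-coding genes of the mouse GRCm38 annotation, with 93513 start sites, 519 met both conditions (2.37%). They were compared with 12420 genes that had both marks in 9 or more HSC lists and with 5180 genes that had each mark in 3 or fewer. Because the HSC lists of both marks chose the members, the HSC values are given as a description without a test.

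Chromatin immunoprecipitation sequencing was done on cells of C57BL/6J wild-type mice, aged 12 to 14 weeks at assignment to the groups, that were either nondiabetic controls or had been made diabetic with streptozotocin, a toxin of pancreatic beta cells, at 42 to 45 mg/kg per day for 5 days. Tissue was taken after 6 weeks, and blood glucose above 13.9 mmol/L counted as diabetic. The cells called HSCs were bone marrow cells depleted of cells bearing CD3, CD4, B220, Ter119 and Gr1, so they were enriched for stem and progenitor cells and not sorted to purity. Bone marrow-derived macrophages (BMDMs) were grown from bone marrow for 7 days in 5 mmol/L glucose with L929 cell-conditioned medium, and then received medium alone (unstimulated) or 100 ng/mL lipopolysaccharide with 10 ng/mL interferon-gamma (LPS+IFNg) for 16 hours. Each mark had 12 HSC lists (6 control and 6 diabetic), 11 lists of unstimulated BMDMs (6 control and 5 diabetic) and 12 lists of LPS+IFNg BMDMs (6 and 6). The files are peak lists of single libraries and give no read totals, so sequencing depth is unknown. In bulk cells, fewer cells bearing a mark and less of the mark per cell cannot be told apart.

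The 70 lists held 13730 to 277213 peaks each and 7828714 in all. The HSC lists had H3K27ac at the promoters of all 10 stem and progenitor markers checked in 9 or more of 12 libraries, and also at those of 5 of 6 erythroid markers, 5 of 5 granulocyte markers and 3 of 7 lymphoid markers. Among 10 macrophage markers, 5 had H3K27ac in 9 or more unstimulated BMDM lists and 7 in 9 or more LPS+IFNg lists, while the macrophage genes Msr1 and Mmp12 had it in 0 and 0 unstimulated lists and in 2 and 0 LPS+IFNg lists. The macrophage markers Cd68, Cd14, Csf1r and Mertk also had H3K27ac in 9 or more HSC lists, and 8 of the 10 stem and progenitor markers had it in 9 or more lists of each BMDM state, so presence of a peak at these markers separated the cell types poorly. No marker was a member. In BMDMs, 3 control libraries went against their labels. Of 26 regions that were among the strongest 10000 H3K27ac peaks of every diabetic LPS+IFNg library and of no diabetic unstimulated library, the libraries labelled unstimulated control replicates 5 and 6 held 18 and 17, and the library labelled LPS+IFNg control replicate 5 held 5. The remaining control libraries held 1 to 9 of these regions where labelled unstimulated and 13 to 25 where labelled LPS+IFNg. Of 27 H3K27ac regions with the reverse pattern, unstimulated control replicates 5 and 6 held 5 and 1, and LPS+IFNg control replicate 5 held 25. Unstimulated control replicate 1 held only 10, while replicates 2 to 4 held 21 to 26. The other LPS+IFNg control libraries held 1 to 8. The tests over BMDM lists, and the counts of members with each mark in each BMDM state, are given below with and without these 3 libraries. Other BMDM values, such as medians, class counts and named genes, include them unless stated. For H3K4me3 the libraries of the same names were left out. That mark had only 3 such regions, so its check was weak. Unstimulated control replicates 5 and 6 held 3 each. LPS+IFNg control replicate 5 held 1, as did LPS+IFNg control replicates 2 and 3. Of 3 regions with the reverse pattern, LPS+IFNg control replicate 5 held 3. Unstimulated control replicates 5 and 6 held 1 each, as did unstimulated control replicates 1 to 3.

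H3K4me3 marks the start sites of most active genes and of many silent genes whose promoters are rich in CpG dinucleotides. H3K27ac marks promoters and enhancers in use. Promoters of developmental regulators often carry H3K4me3 without acetylation, and in embryonic stem cells many of them also carry the Polycomb mark H3K27me3, a state called bivalent. H3K27me3 was not measured in the libraries analysed here, so the members cannot be called bivalent from these data.

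The 250 bases before the RefSeq start site of 6 members are printed because they span the outcomes seen in BMDMs. RefSeq start sites can differ from the annotated start sites that defined the members. At Sox2 and Crhr1 the only annotated start site, at 34650405 and 104132855, lay downstream of the end of the printed bases. Sox2, a transcription factor of pluripotent and neural progenitor cells, Wnt3a, a secreted ligand of the Wnt pathway, and Drd2, a dopamine receptor, remained with H3K27ac in few BMDM lists, whereas Cxcl14, a chemokine, Uncx, a homeobox transcription factor, and Crhr1, the receptor of corticotropin-releasing hormone, had it in most. The sequences are those of RefSeq on the GRCm38.p6 assembly, where 369 of the 519 members were found by symbol. They come from chr3:34649745-34649994 on the plus strand (Sox2), chr11:59290752-59291001 on the minus strand (Wnt3a), chr9:49340153-49340402 on the plus strand (Drd2), chr13:56296552-56296801 on the minus strand (Cxcl14), chr5:139543648-139543897 on the plus strand (Uncx) and chr11:104132531-104132780 on the plus strand (Crhr1), each written 5′ to 3′ along the gene with every CG dinucleotide in capitals.
Sox2: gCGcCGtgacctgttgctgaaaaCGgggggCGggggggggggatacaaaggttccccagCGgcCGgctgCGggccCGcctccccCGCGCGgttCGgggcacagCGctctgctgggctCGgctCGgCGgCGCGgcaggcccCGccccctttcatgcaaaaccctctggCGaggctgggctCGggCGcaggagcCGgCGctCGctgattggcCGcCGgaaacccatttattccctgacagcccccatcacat
Wnt3a: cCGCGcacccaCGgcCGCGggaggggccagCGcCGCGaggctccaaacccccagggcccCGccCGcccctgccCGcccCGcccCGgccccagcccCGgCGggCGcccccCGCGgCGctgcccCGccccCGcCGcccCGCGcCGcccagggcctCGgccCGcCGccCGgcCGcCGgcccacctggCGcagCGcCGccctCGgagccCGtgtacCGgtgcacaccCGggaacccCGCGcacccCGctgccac
Drd2: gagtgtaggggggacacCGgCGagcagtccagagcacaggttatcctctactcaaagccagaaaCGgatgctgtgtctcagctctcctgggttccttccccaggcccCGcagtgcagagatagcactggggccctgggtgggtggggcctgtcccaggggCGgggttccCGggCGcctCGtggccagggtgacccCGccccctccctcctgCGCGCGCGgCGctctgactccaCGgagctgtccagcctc
Cxcl14: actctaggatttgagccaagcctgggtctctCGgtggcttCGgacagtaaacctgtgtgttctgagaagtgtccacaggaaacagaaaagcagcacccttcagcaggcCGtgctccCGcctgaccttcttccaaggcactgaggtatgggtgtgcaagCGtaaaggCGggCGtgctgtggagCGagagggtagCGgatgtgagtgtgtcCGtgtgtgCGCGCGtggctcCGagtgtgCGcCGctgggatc
Uncx: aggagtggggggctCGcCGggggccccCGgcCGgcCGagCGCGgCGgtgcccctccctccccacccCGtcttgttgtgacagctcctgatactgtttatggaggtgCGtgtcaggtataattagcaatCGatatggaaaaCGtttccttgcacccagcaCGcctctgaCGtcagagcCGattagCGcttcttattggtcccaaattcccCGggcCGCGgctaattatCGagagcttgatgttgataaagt
Crhr1: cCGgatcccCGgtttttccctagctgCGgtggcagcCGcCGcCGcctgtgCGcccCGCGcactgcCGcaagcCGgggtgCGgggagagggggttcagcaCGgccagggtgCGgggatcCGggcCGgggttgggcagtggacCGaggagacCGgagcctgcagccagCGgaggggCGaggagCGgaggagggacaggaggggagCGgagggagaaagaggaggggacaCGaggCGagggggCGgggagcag

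The number of CG dinucleotides in the 250 bases was 27 for Sox2, 41 for Wnt3a, 15 for Drd2, 16 for Cxcl14, 20 for Uncx and 25 for Crhr1. Over all 32851 RefSeq promoters of the table the median was 6, and 8.56% of them had as many as Sox2 or more, 1.09% as many as Wnt3a or more and 27.3% as many as Drd2 or more. All 6 stretches thus lay above the median. The H3K4me3 core, meaning the stretch of the promoter covered by the largest number of HSC lists, covered all 250 printed bases at Sox2 and Crhr1, 170 at Uncx and 135 at Drd2. It began 16 bp from the printed bases at Wnt3a and 22 bp from them at Cxcl14.

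Around the outermost start site (500 bp on either side) the members were rich in CpG, though less so than promoters with both marks. The ratio of observed to expected CpG had a median of 0.639 in the members, 0.730 in genes with both marks and 0.145 in genes with neither. The ratio was 0.6 or more in 59.0% of the members, 73.3% of genes with both marks and 0.367% of genes with neither. GC content had a median of 58.3% in the members against 59.3% and 42.6%. The members therefore resembled marked genes and not unmarked genes in base composition, while their ratio lay below that of genes with both marks. The lower ratio was shared by genes with H3K4me3 and H3K27ac in 4 to 8 HSC lists, of which 55.5% had 0.6 or more. By number of H3K27ac lists, the median of genes with H3K4me3 was 0.602 to 0.651 from 4 to 11 lists and 0.741 at 12.

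**Figure D1:**
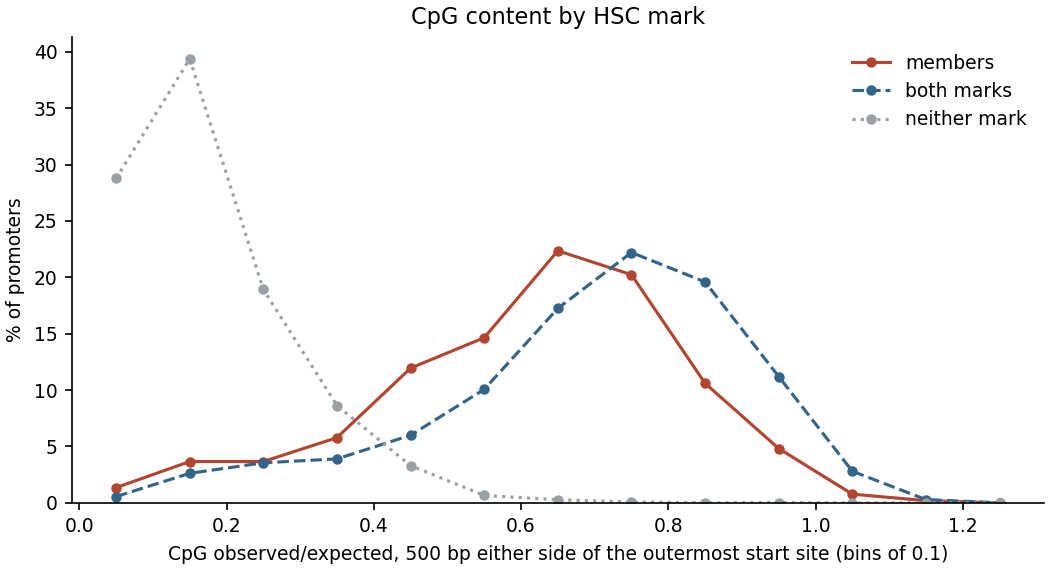
Share of promoters (y axis, percent) by the observed to expected CpG ratio within 500 bp of the outermost start site (x axis, bins of 0.1), for the 519 members, 12420 genes with both marks and 5180 genes with neither mark in HSCs. The curve of the members lies close to that of the genes with both marks and shifted to lower ratios (medians 0.639 and 0.730), and far from that of genes with neither mark (median 0.145).

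The members were long, isolated genes. Their median span was 48.0 kb, against 24.7 kb for genes with both marks and 7.34 kb for genes with neither. The nearest start site of another protein-coding gene was at a median distance of 68636 bp, against 11290 bp and 21274.5 bp. Another gene started within 1000 bp of a member's start site in 17 cases (3.28%), against 22.3% of genes with both marks. The members lay on 20 chromosomes, with 12 on the X chromosome and 9 to 39 on each autosome. Their H3K4me3 formed 512 distinct cores, since 6 cores were shared by 13 members, among them Col4a3 and Col4a4, collagen IV chains transcribed away from each other, Chat and Slc18a3, the acetylcholine-synthesizing enzyme and the vesicular acetylcholine transporter, and Gabrb1 and Gabra4, subunits of the GABA-A receptor.

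The H3K4me3 peak at the members was weaker and narrower than at genes with both marks. By −log10 p within a list, where rank 1 is the strongest peak, the members' best promoter peak in HSCs had a median rank of 13231, against 6367 for genes with both marks and 65461 for the peaks found at genes with neither. Its fold enrichment over background had a median of 4.36 against 4.94, and its width 740 bp against 800 bp. The nearest HSC H3K27ac peak outside or inside the promoter was at a median of 58.0 kb from the members, and in 16.0% of them it was within 10 kb, against 15.9% of genes with neither mark. The core had a median length of 263 bp, was shared by a median of 10 lists and covered a start site in 216 members.

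The limits of the rule were passed gradually. H3K27ac was found in 0 HSC lists at 151 members, in 1 list at 140, in 2 at 103 and in 3 at 125. Just outside, 126 genes with H3K4me3 had H3K27ac in 4 lists and 127 in 5. H3K4me3 was present in 9 HSC lists at 73 members, in 10 at 73, in 11 at 232 and in 12 at 141, and 67 genes just outside had it in 8. The strictest pattern, H3K4me3 in 12 of 12 and H3K27ac in 0 of 12 lists, was seen at 35 members. One library, the H3K4me3 list of diabetic HSC replicate 6, stood apart: it had the shortest list (13730 peaks) and a peak at 161 members, whereas the other 11 HSC lists had one at 441 to 518.

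**Figure D2:**
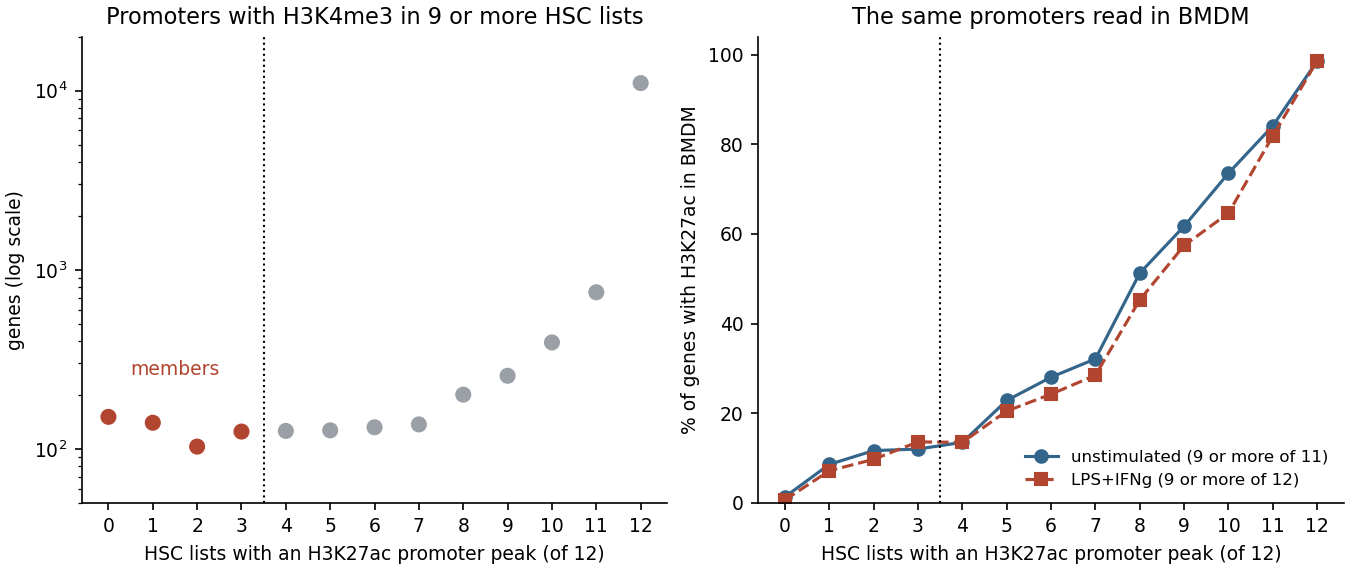
Left, number of genes with H3K4me3 in 9 or more HSC lists (y axis, log scale) by the number of HSC lists with an H3K27ac promoter peak (x axis), with the 519 members in red left of the dotted line. Right, percent of the same genes with H3K27ac in 9 or more of 11 unstimulated or 9 or more of 12 LPS+IFNg BMDM lists, which goes from 1.32% and 0.662% at 0 HSC lists to 12% and 13.6% at 3 and 98.6% and 98.6% at 12.

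By gene class, developmental transcription factors had the highest share of members among the roles. Of 459 genes in this group, 63 were members (13.7%), against 2.37% of all protein-coding genes, while 48.4% of the group had both marks. Channels and receptors, a larger group, held more members (77, or 14.8% of the 519, against 12.1%). The classes were chosen with earlier results of these data known, so the shares describe the members and were not tested. Pax genes, which pattern the embryonic axis and organs, gave 3 of 9 (33.3%), Sox genes 5 of 20 (25%) and Hox genes 7 of 39 (17.9%). T-box genes gave 3 of 17 (17.6%), other homeobox genes 25 of 143 (17.5%) and basic helix-loop-helix genes 10 of 66 (15.2%). The class of Gli, Zic and Sall zinc fingers, which also took in other zinc finger genes such as the members Fezf1 and Prdm13, gave 6 of 42 (14.3%). Fox genes gave 2 of 44 (4.55%), nuclear receptors 1 of 47 (2.13%) and Gata genes, which include regulators of blood formation, 0 of 6.

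Sox2 had H3K4me3 in 12 of 12 HSC lists, with a fold enrichment between 4.06 and 9.95 (median 7.15), and H3K27ac in 2 of 12 at 2.25 and 3.82. Sox1, a neural progenitor factor of the same family, had H3K4me3 in 12 lists (2.51 to 10.8, median 5.02) and H3K27ac in 0. Hoxd11, which patterns the limb and the posterior axis, had H3K4me3 in 12 lists (4.12 to 8.70, median 5.54) and H3K27ac in 2, at 2.44 and 3.47. At these 3 genes H3K4me3 was thus present in every HSC library, and H3K27ac in 2 or fewer. The 7 Hox members were Hoxb2, Hoxb13, Hoxc10, Hoxc12, Hoxd10, Hoxd11 and Hoxd12, of which 6 belong to the posterior paralog groups, and the Hoxa cluster gave no member.

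Signalling genes gave 21 members of 352 (5.97%). Among the ligands were Wnt5a, Wnt3a and Wnt8b (3 of 19 Wnt genes), Bmp4, Fgf10, Fgf14 and Shh, the Sonic hedgehog morphogen. Wnt3a had H3K4me3 in 12 lists (fold 2.30 to 7.06, median 5.05) and Wnt5a in 12 (3.09 to 9.43, median 6.01), and both had H3K27ac in 0 HSC lists. Shh had H3K4me3 in 11 lists (2.15 to 4.82, median 3.29) and H3K27ac in 0, so its H3K4me3 was the weaker of the 3. Antagonists and receptors of the same pathways were also present: Sfrp1, a secreted Wnt inhibitor, Fzd10, a Wnt receptor, and the BMP antagonists Grem1 and Chrdl1. Chemokines and interleukins gave 1 member of 77, Cxcl14.

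Ion channels and receptors gave 77 members of 2317 (3.32%), a share pulled down by 1515 olfactory, vomeronasal and taste receptors, of which 3 were members. The class of channels gated by neurotransmitters, which also took in the acid-sensing channel Asic2, gave 18 of 72 (25%). Among them were the glutamate receptor subunits Gria2, Grin2a and Grin2b and the GABA-A receptor subunits Gabra2, Gabra4, Gabra5, Gabrb1 and Gabrg3. The glycine receptor Glra1 and the nicotinic receptor Chrna7 were members too. Potassium channels gave 20 of 96 (20.8%), including Hcn4, a pacemaker channel that the class counts with them. Receptors for amines, peptides and glutamate gave 12 of 81 (14.8%), among them the dopamine receptors Drd2 and Drd5. Drd2 had H3K4me3 in 11 HSC lists (fold 2.79 to 6.68, median 4.92) and H3K27ac in 0.

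Adhesion, matrix and synaptic genes gave 40 members of 330 (12.1%). Protocadherins, adhesion proteins of the nervous system, gave 14 of 69 (20.3%). Of these, 7 were clustered genes of the Pcdha and Pcdhg loci, whose variable exons each have a promoter of their own and share their downstream exons. Synaptic organizers and vesicle proteins gave 14 of 102 (13.7%), such as Nlgn1, a postsynaptic adhesion protein, and Syt1, the calcium sensor of vesicle release. Cadherins and claudins gave 7 of 55 (12.7%).

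Genes of blood cells and of cell maintenance were nearly absent. Of 275 genes in the classes of stem and progenitor, granule, erythroid and megakaryocyte, macrophage, lymphoid and LPS or interferon response genes, 0 were members, although 34.9% of them had both marks. Of 432 genes of ribosomes, respiratory chain, proteasome, histones and Rab GTPases, 1 was a member (Rab3c, a Rab protein of secretory vesicles) and 92.1% had both marks. Numbered zinc finger genes gave 5 of 410 (1.22%), and the class of pattern recognition receptors, lectins and Fc receptors 1 of 131. This member was Ly6h, a protein of the Ly6 family that the symbols of the class took in. The classes together held 224 members, and 295 members belonged to no class. Outside the classes, and chosen after their values were seen, were the paternally expressed imprinted genes Peg3, Usp29, Snrpn, Snurf and Dio3, and Magel2 is a further imprinted gene within the germline class. H3K4me3 was present in 9 to 11 HSC lists at Peg3, Usp29, Snrpn, Magel2 and Dio3 and H3K27ac in 0 to 3.

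**Figure D3:**
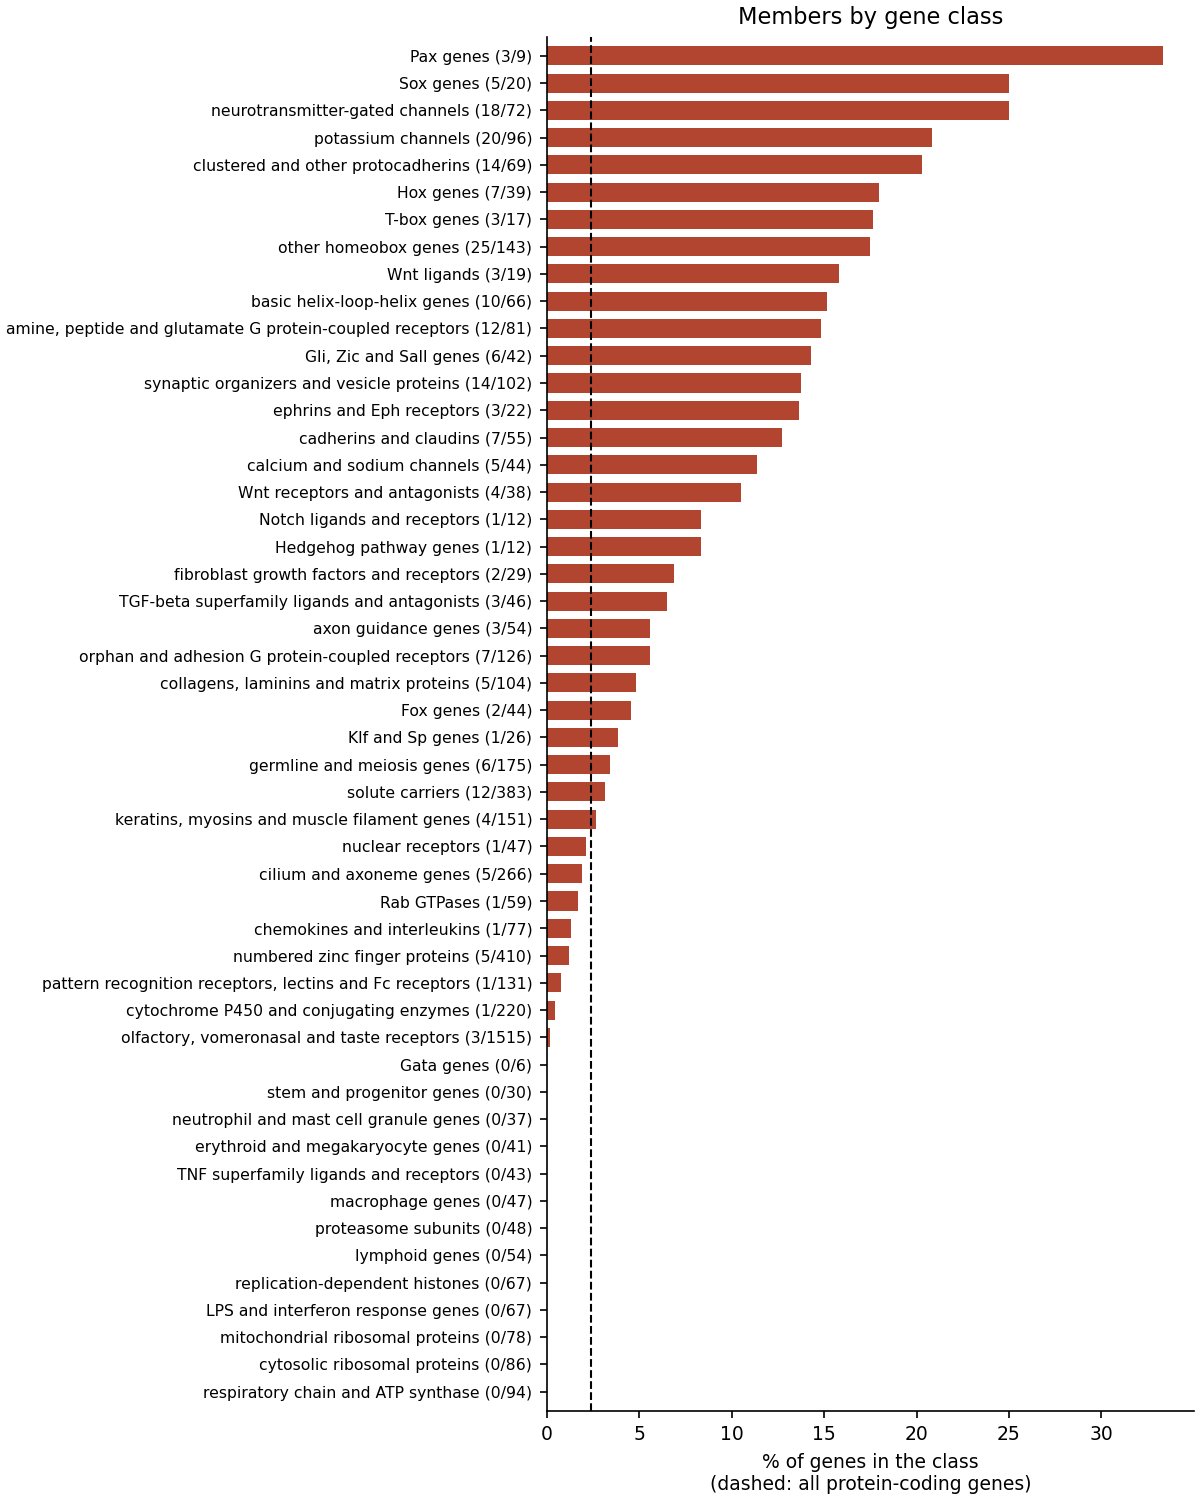
Percent of the genes of each class that were members (bars), with members and genes of the class in parentheses and the share of all protein-coding genes, 2.37%, as a dashed line. Pax, Sox, transmitter-gated channel, potassium channel and protocadherin classes lie at 20.3% to 33.3%, and the classes of blood cell genes at 0%.

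A further question was whether these promoters gained H3K27ac in macrophages. Most did not gain it in most libraries. Of the 519 members, 41 (7.90%) had an H3K27ac peak in 9 or more of the 11 unstimulated BMDM lists, where 60.7% of all protein-coding genes did, and 38 (7.32%) in 9 or more of the 12 LPS+IFNg lists, where 61.2% of all genes did. Both conditions were met by 20 members (3.85%), and 1 or both by 59 (11.4%). Genes with both marks in HSCs had H3K27ac in 96.2% and 95.7%, genes with H3K4me3 and H3K27ac in 4 to 8 HSC lists in 31.8% and 28.4%, and genes with neither mark in 0.251% and 0.753%. Without the 3 libraries that went against their labels, 81 members (15.6%) had H3K27ac in at least 7 of the 9 remaining unstimulated lists, where 63% of all genes did, and 27 (5.20%) in at least 9 of the 11 remaining LPS+IFNg lists, where 59.1% did. The count in unstimulated BMDMs was 74 without control replicate 1, 68 without control replicate 5 and 68 without diabetic replicate 4, each read as 8 or more of 10 lists, so it depended on single libraries.

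Few members had no acetylation at all in BMDMs. Only 3 had H3K27ac in 0 of the 23 BMDM lists: Adcy1, an adenylyl cyclase of neurons, Adra2c, an adrenergic receptor, and Nudt10, a Nudix hydrolase. In 457 members it was present in 1 or more lists of BMDMs but in fewer than 9 of either state. The median member had it in 5 of 11 unstimulated and 4 of 12 LPS+IFNg lists, and 151 members (29.1%) had it in 12 or more of the 23, against 98.9% of genes with both marks. H3K27ac peaks at the members were weak where present, with a median rank of 71878 within a list against 6101.5 for genes with both marks and a median fold enrichment of 3.42 against 7.80. The peaks that members did have in BMDMs thus lay in the weaker part of the lists.

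**Figure D4:**
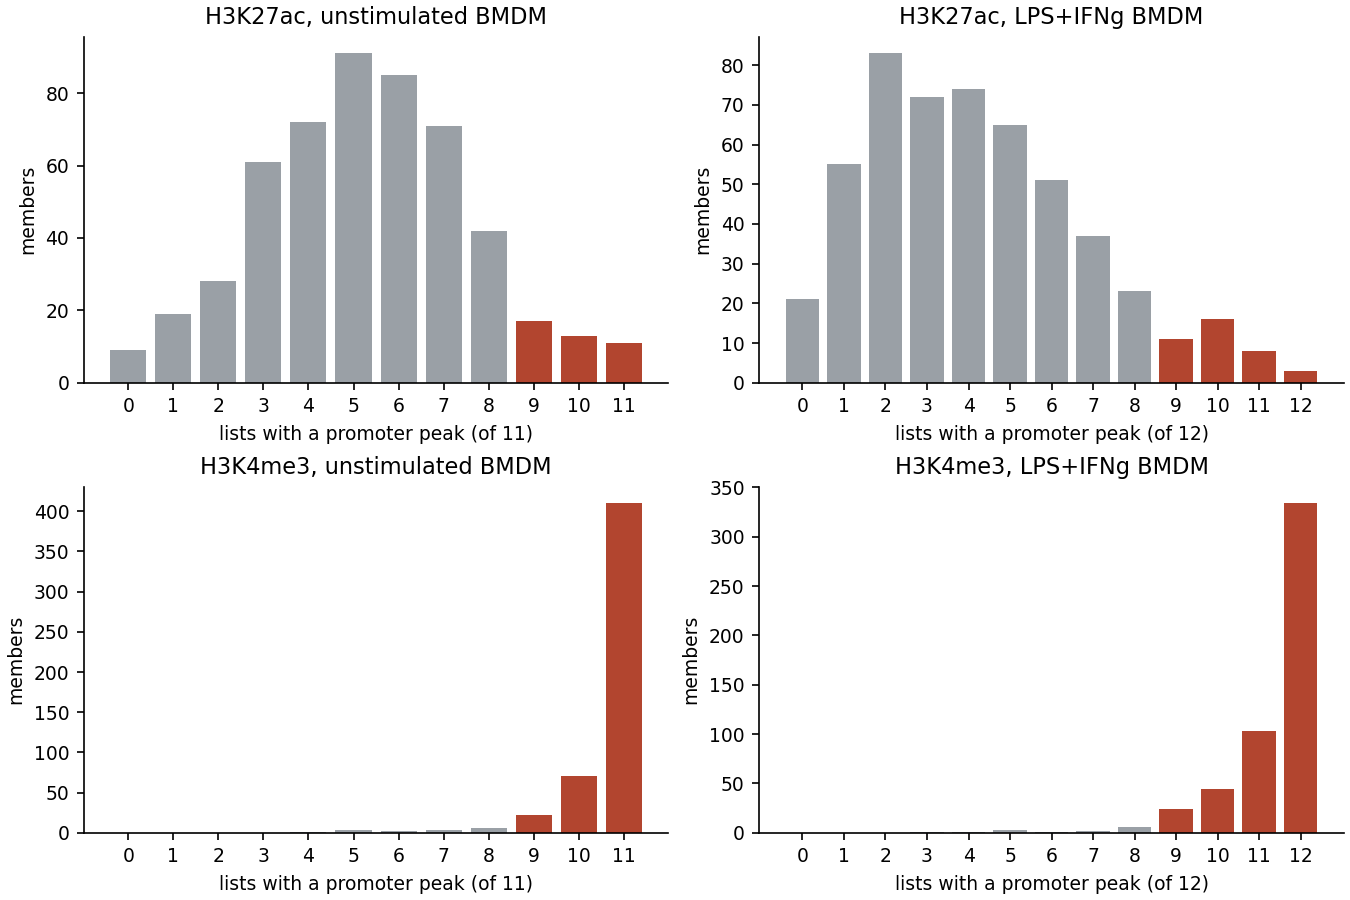
Number of members (y axis) by the number of BMDM lists with a promoter peak (x axis), for H3K27ac (top) and H3K4me3 (bottom) in unstimulated (left, 11 lists) and LPS+IFNg BMDMs (right, 12 lists), with 9 or more lists in red. H3K27ac counts center on 5 of 11 and 4 of 12 lists with 41 and 38 members in red, and H3K4me3 counts gather at the right, with 503 and 505 members in red.

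The number of members with an H3K27ac peak varied widely between libraries of the same group. In HSCs it was 7, 64, 138, 51, 32 and 76 in the 6 control libraries and 43, 128, 66, 38, 76 and 2 in the 6 diabetic libraries. In unstimulated BMDMs it was 50, 324, 277, 371, 91 and 322 in control replicates 1 to 6 and 212, 382, 92, 224 and 403 in diabetic replicates 1, 2, 4, 5 and 6. In LPS+IFNg BMDMs it was 121, 335, 56, 198, 280 and 321 in control and 88, 204, 41, 115, 110 and 321 in diabetic libraries. The groups of BMDMs overlapped with each other and, at their low ends, with HSCs. The count did not follow the length of the list alone: unstimulated control replicate 1 had 139412 peaks and 50 members with H3K27ac, and unstimulated diabetic replicate 6 had 111095 peaks and 403.

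**Figure D5:**
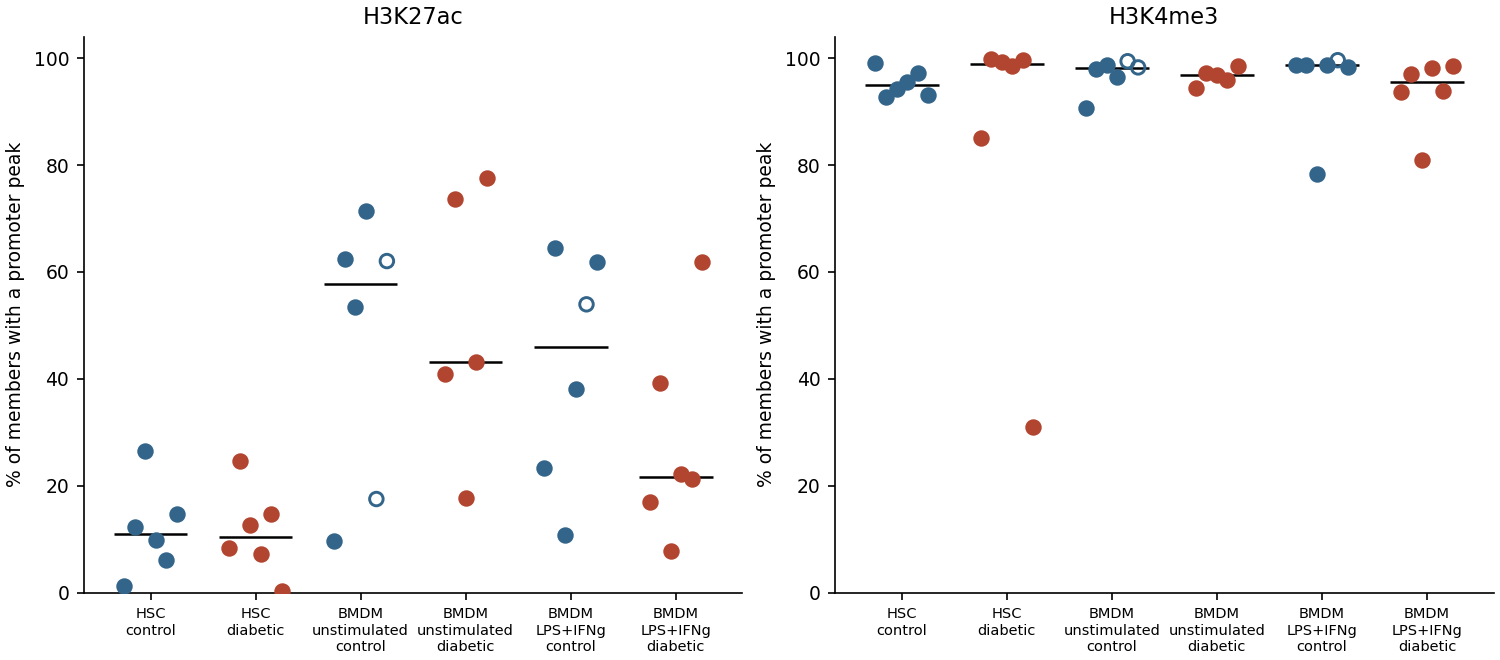
Percent of the 519 members with a promoter peak (y axis) in each library (points) of each cell type and condition, for H3K27ac (left) and H3K4me3 (right), with control libraries in blue, diabetic in red and the median as a line; open points are the 3 control BMDM libraries that went against their labels. H3K27ac ranges from 9.63% to 77.6% in unstimulated BMDMs, and H3K4me3 is at 78.4% or more in every BMDM library, with 1 HSC library at 31.0%.

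Counts for one set of animals were also read in the other. When genes were chosen from the control HSC lists alone, with H3K4me3 in 5 or more and H3K27ac in 1 or fewer of 6 lists (462 genes), H3K27ac was found in 15.7% of their readings in diabetic HSC lists, 50.4% in unstimulated diabetic BMDM lists and 27.9% in diabetic LPS+IFNg lists. When they were chosen from the diabetic HSC lists alone (442 genes), it was found in 16.6% of readings in control HSC lists, 44.6% in unstimulated control BMDM lists and 41.3% in control LPS+IFNg lists. A reading is 1 gene in 1 list. In HSC libraries that had no part in the choice, H3K27ac thus remained rare at these promoters, and in BMDM lists of the group that had no part in the choice it was found more often.

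H3K4me3 was kept. A peak was present in 9 or more lists at 503 members in unstimulated BMDMs (96.9%, all genes 68.2%) and at 505 in LPS+IFNg BMDMs (97.3%, all genes 69.6%). The counts were 503 and 481 without the 3 libraries that went against their labels. The excess over all genes was built in, since members were chosen for H3K4me3 in HSCs. Genes with both marks in HSCs had 99.0% and 99.5%. Genes with H3K4me3 and H3K27ac in 4 to 8 HSC lists had 98.2% and 98.5%. The members thus kept H3K4me3 slightly less often than these other genes with H3K4me3. Ptn, the growth factor pleiotrophin, had it in the fewest lists, 4 of 11 and 3 of 12, after 9 of 12 in HSCs. Zfp981, a zinc finger gene, had it in 5 and 4, and Chrdl1, a BMP antagonist, in 5 and 5 after 12 of 12 in HSCs. The median rank of the members' H3K4me3 peak was 23319 in BMDMs, against 5974 for genes with both marks.

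The more HSC lists had H3K27ac, the more often it was found in BMDMs, also within the members. Members with H3K27ac in 0 HSC lists had it in 9 or more BMDM lists in 1.32% (unstimulated) and 0.662% (LPS+IFNg), those with 1 list in 8.57% and 7.14%, those with 2 in 11.7% and 9.71%, and those with 3 in 12% and 13.6%. Genes with H3K4me3 and H3K27ac in 4 HSC lists had 13.5% and 13.5%, and those with 12 had 98.6% and 98.6%. Of the 35 members with H3K4me3 in 12 and H3K27ac in 0 HSC lists, 0 had H3K27ac in 9 or more lists of either BMDM state. These values describe the limit that was set and were not tested.

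Among the members with H3K27ac in most BMDM lists, Fat3 stood out in signal. Fat3, an atypical cadherin of the nervous system, had H3K27ac in 2 of 12 HSC lists at fold enrichments of 2.59 and 3.34, in 11 of 11 unstimulated BMDM lists at 6.54 to 11.9 (median 9.19) and in 12 of 12 LPS+IFNg lists at 4.59 to 10.3 (median 8.53). Its BMDM rank was 8049, close to that of genes with both marks (median 6101.5), and the HSC and BMDM fold enrichments did not overlap. Its H3K4me3 was present in 12 of 12 HSC lists at 3.07 to 8.03 (median 3.90). The H3K4me3 core in HSCs, chr9:16502058-16502126, lay 773 bp from the nearest start site.

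Cxcl14, a chemokine made by many epithelia, had H3K27ac in 3 HSC lists (1.94 to 2.71, median 2.19) and in all 23 BMDM lists, at 3.42 to 8.02 (median 4.41) unstimulated and 2.39 to 6.33 (median 4.71) with LPS+IFNg. Scrt2, a neuronal zinc finger repressor, had it in 1 HSC list (3.01) and in 11 of 11 (2.95 to 7.13, median 4.09) and 11 of 12 BMDM lists (3.55 to 7.02, median 4.62). Cyp26c1, an enzyme that degrades retinoic acid, had it in 2 HSC lists (3.0 and 6.19) and in 10 of 11 (2.97 to 6.56, median 4.59) and 12 of 12 (3.08 to 12.3, median 5.85). These 3 genes were acetylated in nearly every BMDM library, but their fold enrichments overlapped between the HSC lists that had a peak and the BMDM lists. Cyp26c1 had H3K4me3 in 9 HSC lists, the lowest number that the rule allows.

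Crhr1 was the clearest case of absence in HSCs among these genes. It had H3K27ac in 0 of 12 HSC lists, in 9 of 11 unstimulated BMDM lists (2.75 to 6.94, median 3.83) and in 10 of 12 LPS+IFNg lists (2.97 to 6.79, median 4.18), and H3K4me3 in 11 of 12 HSC lists at 3.35 to 11.1 (median 5.15). Uncx, a homeobox factor of somites and kidney, had H3K27ac in 1 HSC list (2.01) and in 10 of 11 (2.71 to 5.10, median 3.39) and 11 of 12 BMDM lists (2.42 to 3.98, median 3.32), so every BMDM peak was above the single HSC peak. Colec12, a scavenger receptor with a collagen and a lectin domain, had it in 1 HSC list (2.86) and in 10 of 11 and 10 of 12 BMDM lists (median 4.29 and 4.60). Dlgap2, a postsynaptic scaffold protein, had it in 3 HSC lists and in 11 of 11 and 11 of 12. Dner, a Notch ligand of neurons, had it in 2 HSC lists and in 9 of 11 and 9 of 12.

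The 20 members with H3K27ac in 9 or more lists of both BMDM states were of mixed kinds. Besides the 9 genes above they were Flg, the skin protein filaggrin, the imprinted gene Peg3, the olfactory receptor Olfr222, the homeobox gene Duxf3 and 7 genes with clone or model names. Of these, 6 lay in the first 4 Mb of chromosome 9, where 8 members (all with model names) sat in sequence that was 93.6% to 99.2% repeat. Their BMDM fold enrichments, 2.09 to 2.48, were low. These 8 genes are given as uncertain because they lie in repeat sequence, and how alike the copies are and how well reads could be placed on them was not measured. Without them, 511 members remained, of which 33 had H3K27ac in unstimulated BMDMs, 32 in LPS+IFNg BMDMs and 14 in both. Duxf3, of a multicopy family, is given as uncertain too (fold 1.67 to 3.32 unstimulated).

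Of the 63 developmental transcription factors, 1 (Uncx) had H3K27ac in 9 or more unstimulated lists and 4 in 9 or more LPS+IFNg lists: Uncx, Tbx20 and Nkx2-5, regulators of heart development, and Tlx3, a regulator of sensory neurons. Sox2 had it in 4 of 11 unstimulated lists (2.92 to 4.35, median 3.60) and 2 of 12 LPS+IFNg lists (2.89 and 4.13), and Sox1 in 3 and 2. Sox9, a regulator of cartilage and gonads, had it in 8 and 6, and Pax9, a regulator of tooth and thymus development, in 8 and 7 (2.38 to 4.18 and 2.95 to 4.83). The 7 Hox members had it in 3 to 7 unstimulated and 2 to 8 LPS+IFNg lists. The group as a whole therefore had acetylation in a median of 5 of 11 and 4 of 12 lists, the same medians as all members.

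Signalling members had a median of 4 and 3 lists, and 2 of 21 (Cxcl14 and Dner) passed 9 in each state. Wnt3a had H3K27ac in 2 and 1 lists, Wnt5a in 5 and 2, Shh in 2 and 2 and Bmp4 in 4 and 3. Channels and receptors had a median of 5 and 3 lists, and 7 and 3 of 77 passed. Those of the unstimulated state included the potassium channel Kcnj6, the sodium channel Scn8a, the receptors Galr1 (galanin), Hrh3 (histamine) and Grm2 (glutamate) and the olfactory receptor Olfr222. Drd2 had H3K27ac in 1 and 2 lists and Grin2b in 1 and 1. Germline genes had 2 of 6 passing in unstimulated BMDMs, Tdrd1 (11 of 11, fold 2.73 to 5.75), a protein of the piRNA pathway, and Sycp1, a part of the synaptonemal complex (9 of 11), after 3 HSC lists each.

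The effect of stimulation on the presence of a peak was tested over all genes, since BMDM lists had no part in the choice of members. By Fisher's exact test on 12 LPS+IFNg against 11 unstimulated lists with Benjamini-Hochberg adjustment, 0 of 4157 testable genes were called for H3K27ac (0%) and 0 of 461 testable members (lowest adjusted p among members 0.717). At an unadjusted p under 0.05, 227 genes (5.46%) passed, 86 of them with more LPS+IFNg lists, and 21 members (4.56%), all with fewer LPS+IFNg lists. The share of lists with H3K27ac was lower with LPS+IFNg at 398 members and higher at 116, so that it was lower at 77.4% of the members that differed, against 58.7% over all protein-coding genes (4024 lower and 2828 higher). Without the 3 libraries that went against their labels it was lower at 410 members and higher at 103 (79.9%), against 64.6% over all genes, an alternative chosen after seeing the data. The LPS+IFNg libraries also had fewer members with H3K27ac per library in the diabetic group, as given above, and the part of this difference between libraries was not tested. For H3K4me3, 0 of 2768 testable genes were called (0%) and 34 (1.23%) passed the unadjusted threshold, with 0 of 43 testable members by either count. Without the 3 libraries that went against their labels, 0 genes were called for either mark, and 283 of 3861 and 47 of 2580 passed unadjusted.

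The 5 members with the largest drop in the share of lists, which did not pass after adjustment, came from muscle, neurons and germ cells by their known roles. Klhl40, a stabilizer of muscle thin filaments, had H3K27ac in 9 of 11 unstimulated and 2 of 12 LPS+IFNg lists (exact p = 0.00333 unadjusted). Kcnk2, a background potassium channel, had it in 8 and 2 (exact p = 0.0123). Ccna1, a germline cyclin, Chrna7 and Crabp1, a retinoic acid-binding protein, had it in 7 and 1 each (exact p = 0.00942). Where Kcnk2 had a peak, its fold enrichment overlapped between the states, at 2.79 to 3.84 in the 8 unstimulated lists and 2.86 and 3.55 in the 2 LPS+IFNg lists. In the other direction, Srrm3, a neuronal splicing factor, had H3K27ac in 6 and 11 lists, Asic2, an acid-sensing channel, in 6 and 10, Nkx2-5 in 5 and 9, Rab3c in 5 and 9 and Gmnc, a regulator of multiciliated cells, in 4 and 8, and 0 of these 5 passed the unadjusted threshold. No member had H3K27ac in 2 or fewer unstimulated and 9 or more LPS+IFNg lists, and 1 (Klhl40) had the reverse, 9 or more unstimulated and 3 or fewer LPS+IFNg lists.

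Diabetes was tested within each BMDM state. In HSCs no test was made, since the largest possible split at a member, 3 against 0 of 6 lists, gives an exact p of 0.182. In unstimulated BMDMs (5 diabetic against 6 control lists), Fisher's exact test called 0 of 2048 testable genes for H3K27ac (0%), with 6 (0.293%) at an unadjusted p under 0.05. Of 319 testable members, 3 passed unadjusted: Vstm2b, an immunoglobulin-domain membrane protein, Ephb1, a receptor of ephrins, and Rxfp3, a relaxin-family receptor, each with H3K27ac in 0 of 6 control and 4 of 5 diabetic lists (exact p = 0.0152). In LPS+IFNg BMDMs (6 against 6), 0 of 1352 genes were called (0%) and 17 (1.26%) passed unadjusted, with 1 of 153 testable members, Grm2, in 5 of 6 control and 0 of 6 diabetic lists (exact p = 0.0152). The adjusted p of these 4 members was 1. With 5 or 6 lists a group the smallest possible exact p is 0.00216, and at least 89 genes in unstimulated and 59 in LPS+IFNg BMDMs would have to reach it for any to be called, so an adjusted p of 1 says little about these splits. Without the 3 libraries that went against their labels, 0 genes were called, and 59 of 2373 genes (2.49%) passed unadjusted in unstimulated BMDMs and 26 of 1966 (1.32%) in LPS+IFNg BMDMs. Of the testable members, 9 of 353 then passed in unstimulated BMDMs, 4 of them with more diabetic lists, and 1 of 203 in LPS+IFNg BMDMs. Vstm2b, Ephb1 and Rxfp3 then had H3K27ac in 0 of 4 control and 4 of 5 diabetic lists (exact p = 0.0476), and Grm2 in 4 of 5 control and 0 of 6 diabetic lists (exact p = 0.0152).

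For H3K4me3, 0 of 1237 genes were called between diabetic and control unstimulated BMDMs (0%) and 61 (4.93%) passed unadjusted, with 0 of 10 testable members, and 0 of 871 in LPS+IFNg BMDMs (0%) with 7 (0.804%) unadjusted and 0 of 6 members. Without the 3 libraries that went against their labels, chosen for this mark after seeing the data, 0 genes were called, 125 of 1557 and 11 of 1326 passed unadjusted, and 0 of 16 and 0 of 13 testable members did. Few members could be tested because H3K4me3 was present in nearly all lists.

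The same pattern read in unstimulated BMDMs gave a smaller set. H3K4me3 in 9 or more and H3K27ac in 2 or fewer of the 11 lists was found at 144 genes. Of these, 48 were also members, 33.3% of the 144 and 9.25% of the 519, where 2.37% of all genes were members. Of the 144, 17 (11.8%) had H3K27ac in 9 or more HSC lists. Of the 519 members, 49 (9.44%) stayed low in both BMDM states, with H3K27ac in 2 or fewer of 11 and 3 or fewer of 12 lists. This held for 24.6% of all genes, 0.0725% of genes with both marks and 93.0% of genes with neither.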

How the data were processed

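Peak lists of H3K27ac and H3K4me3 chromatin immunoprecipitation sequencing (50 bp single reads) were analysed, 35 lists per mark. The submitters' processing notes name Trim Galore 0.3.3, cutadapt 1.8, FastQC 0.11.3, Bowtie2 2.2.6, Picard 2.18.14 and 2.19.2, bedtools 2.19.1 and MACS2 2.2.7.1 with the builds GRCm38 and mm10, without their settings. Peaks were called per library against the input of the same cells, as the peak names in the deposited lists say. In the lists deposited by the authors each peak has a fold enrichment over background, a −log10 p and a −log10 q. A deposited score column restates the q and was not used. The 36 input samples were not used here.

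From these lists, a promoter was read as holding a peak when they shared at least 1 bp. Start sites came from GENCODE mouse release 21 (GRCm38), and base composition from the GRCm38.p6 genome. Presence of a peak was tested per gene with a two-sided Fisher's exact test over libraries and Benjamini-Hochberg adjustment over genes that could reach 0.05 (Python 3.11.15, SciPy 1.17.1, pandas 2.3.3, NumPy 2.4.6, matplotlib 3.10.9), and the test was checked on simulated data. The labels do not say that samples came from separate animals, so p-values measure the spread between samples, which may be technical. Peak presence depends on sequencing depth, which the lists do not give. Groups and replicate numbers came from the sample titles.

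The members and gene classes were chosen with earlier results of these data known. Members named were, by rule, the 10 with the strongest H3K4me3 among those with H3K4me3 in 12 and H3K27ac in 0 HSC lists, the 10 with H3K27ac in the most BMDM lists, the 5 with the largest difference between BMDM states in each direction, genes called in a test and up to 3 per class with the strongest H3K4me3; clone and model names were left out. Further names were chosen after their values were seen. Alternatives were a q of 0.01, the best 50000 peaks of a list, 200 bp of overlap, windows of 500 and 2000 bp, the outermost start site alone, stricter list numbers, other tests and leaving out libraries. Same-numbered BMDM samples did not all deviate together, and the numbers were not used as pairs in the main tests. Between the states, the sample of the same number was the closest in 5 of 11 cases for H3K27ac and 8 of 11 for H3K4me3. The unpaired stimulation tests may therefore leave out a pairing, and a replicate block on the numbers is given below.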

Additional observations from a re-analysis of the deposited data

Results flagged for a closer look

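The groups of libraries of each mark were checked for their number of members with a peak and for the length of their lists, 24 checks in all. In 4 of them 1 library lay far from the others of its group, by the ratio of its gap to the group's range, each time in the number of members. All 4 were H3K4me3 lists and low. The H3K4me3 list of diabetic HSC replicate 6 had a peak at 161 members. The list of LPS+IFNg control replicate 3 had one at 407 members, that of LPS+IFNg diabetic replicate 3 at 420 and that of unstimulated control replicate 1 at 471. Among the BMDM groups, which had no part in the choice of members, chance alone picks out about 1 in 20 by this measure. The HSC lists chose the members, so the flag in diabetic HSCs is a description only. The cause was not tested.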

How the results depend on the processing

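The number of members was 977 with the best 50000 peaks of each list (465 of them among the 519) and 35 with H3K4me3 in 12 and H3K27ac in 0 HSC lists, and the cause of the first was not tested. Without 1 HSC replicate at a time, where the rule became 9 or more and 2 or fewer of 11 lists, it was 345 to 418, and members with H3K27ac were 25 to 32 in unstimulated and 21 to 32 in LPS+IFNg BMDMs, and members keeping H3K4me3 were 338 to 411 and 338 to 410. Without 1 BMDM library at a time, members with H3K27ac were 41 to 74 (unstimulated) and 27 to 36 (LPS+IFNg), and members keeping H3K4me3 were 503 to 507 and 481 to 498. Without the 3 control libraries that went against their labels, members with H3K27ac were 81 and 27; the same alternative for H3K4me3 (503 and 481) was chosen after seeing the data. With the strict rule, 0 and 0 members had H3K27ac and 35 and 35 kept H3K4me3. With the best 50000 peaks, 757 of 977 members (77.5%) kept H3K4me3 in unstimulated and 732 (74.9%) in LPS+IFNg BMDMs, against 96.9% and 97.3% with all peaks.

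In the 6 tests Fisher's exact test called 0 genes under every alternative run. Same-numbered BMDM samples correlated at −0.101 to 0.243 (H3K27ac) and 0.00945 to 0.283 (H3K4me3) over the 11 pairs of states, and a replicate block on these numbers called 0 genes for stimulation with 45 of 1010 (H3K27ac) and 8 of 303 (H3K4me3) at an unadjusted p under 0.05, and 0 genes for diabetes in LPS+IFNg BMDMs with 1 of 11 and 0 of 14. Diabetic and control samples came from different groups of mice, so a shared number need not mark a pair between them. In LPS+IFNg BMDMs the same-numbered sample of the other group was the closest in 1 of 6 cases for H3K27ac and 2 of 6 for H3K4me3. In unstimulated BMDMs this was so in 2 of 5 and 1 of 5. There the block was not run, because 5 same-numbered samples cannot go below an exact sign-test p of 0.0625.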
